A study of Mus musculus with 6 samples.

Results

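The genes described here are 10 matricellular and provisional matrix genes, chosen by name: *Tnc*, *Fn1*, *Postn*, *Spp1*, *Thbs1*, *Thbs2*, *Sparc*, *Vcan*, *Dcn* and *Lum*. They were chosen with earlier results of these data known. All 10 were found among the 15280 genes of the table. Expression was measured by RNA-Seq in 6 libraries from 3 parous female BK5.ATF3 transgenic mice, in which the bovine cytokeratin-5 promoter, active in basal epithelial cells, drives the transcription factor ATF3. Each mouse had raised a litter and was sacrificed at a tumor length of 1.5 cm, and tumors in most animals of this strain arose at an age of 6 to 12 months. From each animal, 1 tumor (T11035, T11640 and T9232) and the matched normal, adjacent mammary gland (M11035, M11640 and M9232) were sequenced, so n = 3 for each tissue. Because the glands carried the transgene too, tumors were compared with transgenic gland and not with wild-type gland; the labels name no treatment.

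Matricellular proteins are secreted into the matrix, where they change how cells adhere, migrate and receive growth factors more than they bear load. Tenascin C, periostin, osteopontin, the thrombospondins and SPARC belong to this class. Fibronectin and versican make up much of the provisional matrix, the loose scaffold laid down during wound repair and around many tumors. Decorin and lumican are small leucine-rich proteoglycans, which bind collagen fibrils and regulate their width and spacing in resting connective tissue.

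Of the 10 genes, 7 were upregulated in the tumors (*Tnc*, *Vcan*, *Postn*, *Thbs2*, *Thbs1*, *Fn1* and *Sparc*), 0 were downregulated and 3 were not called (*Lum*, *Dcn* and *Spp1*). Differentially expressed genes (DEGs) were those with an adjusted p no higher than 0.05 and a fold change (FC) no smaller than 2 in a limma fit over all genes. By this rule, 14.5% of all genes were upregulated, 13.7% were downregulated and 28.2% were called in either direction. The median log2 FC was 2.82 over the 10 genes and -0.00 over all genes. Each of the 7 upregulated genes was higher in every tumor than in every gland, a separation that 27.6% of all genes showed in the same direction, 26.3% in the opposite direction and 54.0% in either, whereas the tissues overlapped for *Lum*, *Dcn* and *Spp1*. In 16 alternative analyses, the same 7 genes were called in each, and *Lum* was added in 1 of them.

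The libraries held between 4750989 and 7806908 fragments on genes, so that 3 fragments, used here as the limit of detection, corresponded to between 0.393 and 0.610 CPM (fragment counts scaled by the library size). These limits cover counting error only. *Atf3*, the targeted gene, was at 4.47, 8.09 and 22.6 CPM in glands M11035, M11640 and M9232, and at 13.4, 18.3 and 19.3 CPM in the tumors of the same mice. It was not called (log2 FC 0.80 ± 0.49 (SE), limma adjusted p = 0.223), although without gland M9232 it was (log2 FC 1.41, adjusted p = 0.00804), and without glands M11035 and M11640 its log2 FC was -0.41 (adjusted p = 0.366). Whether fragments of the transgene fall on this gene is not stated. Several markers of other cell types moved with tissue. The 8 adipocyte markers were all downregulated, with a sum of 3282 to 6446 CPM in the glands and 145 to 209 CPM in the tumors, and 1 of them (*Lep*) was at or under the detection limit in each tumor. All 6 B cell markers and all 7 T cell markers in the table were downregulated. Of 8 epithelial markers, 7 were upregulated (sum 227 to 497 CPM in the glands, 2024 to 2667 CPM in the tumors). Neutrophil markers summed to 64.1 to 154 CPM in the glands and 746 to 1307 CPM in the tumors, with 3 of 6 upregulated and 1 downregulated. Most of the sum in the tumors came from *S100a9* (683 ± 210 CPM) and *S100a8* (197 ± 25.3 CPM; SD, n = 3). Of 7 endothelial markers 2 were downregulated and 0 upregulated, and of 7 contractile and pericyte markers 1 was upregulated and 2 were downregulated. The 5 skeletal muscle markers summed to 3679 CPM in gland M11035, 1455 CPM in gland M11640 and 4.24 CPM in gland M9232, against 7.08 to 13.8 CPM in the tumors. Glands M11035 and M11640 thus stood apart in muscle transcripts, and the results below are also given without them where this moved a value by more than 1.5 times.

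The 10 fibroblast markers are the ones closest to these matrix genes. Their sum was 801, 3015 and 1265 CPM in glands M11035, M11640 and M9232, and 7821, 8591 and 7891 CPM in tumors T11035, T11640 and T9232. Of the 10, 5 were upregulated, 2 were downregulated and 3 were not called. In the tumors, the sum was carried by fibrillar collagen, whereas in the glands other markers held a large part of it. *Col1a1*, a chain of type I collagen, rose by a log2 FC of 4.63 ± 0.33 (SE), whereas *Pdgfra*, a receptor that marks fibroblasts, was at 266 ± 95.6 CPM in the glands and 221 ± 58.8 CPM in the tumors (SD, n = 3; log2 FC -0.23, limma adjusted p = 0.561). *Pdgfrb*, which marks fibroblasts and pericytes, was upregulated from 24.5 ± 4.27 to 73.1 ± 10.03 CPM. In bulk tissue, fewer cells of a type and less RNA per cell cannot be told apart, and the part of these cell types in the changes below was not tested.

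**Figure D1:**
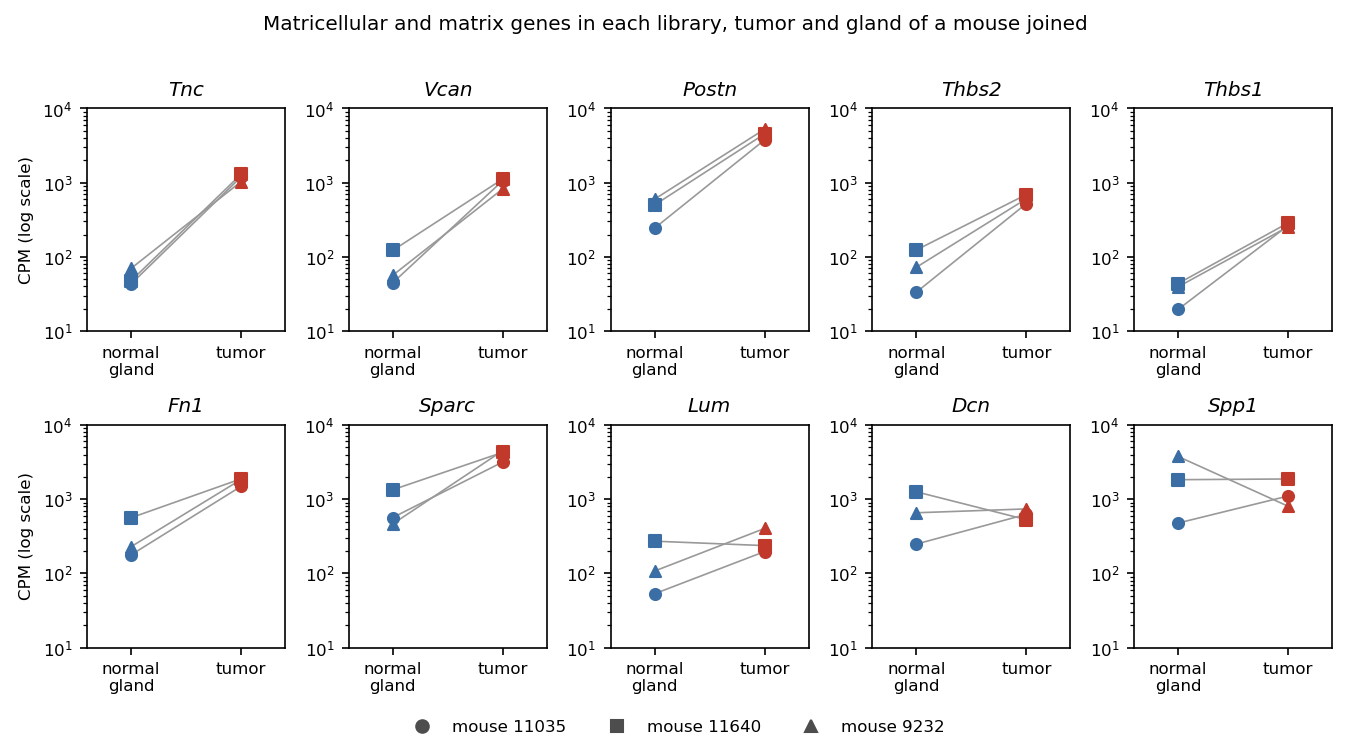
CPM of each gene on a log scale in the 3 normal glands (blue) and the 3 tumors (red), with the tissues of a mouse joined by a line and the mouse given by the symbol. The lines of the first 7 genes all rise and their tissues do not overlap, whereas those of *Lum*, *Dcn* and *Spp1* cross.

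Because 7 of the 10 genes rose in the same tumors, their promoters were searched for motifs, and the stretches with a match are shown. RefSeq promoters (GRCm38.p6, each 300 bases long and mostly upstream of the start of transcription) were given for 6 of the 10 genes, with 9 promoters in all. *Postn*, *Spp1* and *Tnc* had 2 each, and *Sparc*, *Thbs2* and *Vcan* had 1 each. All 9 were found in mm9 by their sequence. Both strands were searched for an AP-1 site (TGANTCA), a cAMP response element (TGACGTCA), a TEAD site (GGAATG) and a TATA box (TATAAA), none of which contains another. The first 3 motifs were in 0 of the 9 promoters, and in 7.81%, 1.79% and 14.66% of all 32851 RefSeq promoters. The TATA motif was in 5 of the 9, in promoters of *Postn*, *Spp1*, *Thbs2* and *Tnc*, and in 13.62% of all promoters. The matches are shown in capitals within 30 bases, read 5′ to 3′ on the strand of the gene.
Postn, chr3:54164991-54165020 (mm9, plus strand): agcccagagctaTATAAActcagctctcca
Spp1, chr5:104863907-104863936 (mm9, plus strand): ctaaatgcagtcTATAAAtgaaaagggtag
Thbs2, chr17:14831378-14831407 (mm9, minus strand): ttgctggttttaTTTATAgcattttatttc
Tnc, chr4:63708158-63708187 (mm9, minus strand): ttttttcttcacTATAAAttgtatgcaaat
The match began at position -26 from the start in *Postn*, at -211 in *Spp1* and at -126 in *Thbs2*, where it lies in the reverse orientation. In *Tnc*, the same stretch began at -205 from 1 RefSeq start and at -126 from the other, so that it was counted in both promoters. Genes with a match were among those that rose (*Postn*, *Thbs2* and *Tnc*) and those that were not called (*Spp1*).

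*Tnc* encodes tenascin C, a hexameric glycoprotein of developing and wounded tissue that is scarce in most resting adult tissue. It lies at chr4:63620819-63681760 in GENCODE vM1 (mm9, minus strand), and the RefSeq starts of the promoters shown above lie upstream of this span. *Tnc* was at 43.1, 47.6 and 69.9 CPM in glands M11035, M11640 and M9232, and at 1198, 1299 and 1034 CPM in tumors T11035, T11640 and T9232. The tissues were far apart, and the 3 tumors differed from each other by less than 1.5 times. From 53.5 ± 14.4 to 1177 ± 134 CPM (SD, n = 3), *Tnc* was 22.2-fold higher in the tumors (95% confidence interval 16.2 to 30.3; log2 FC 4.47 ± 0.20 (SE), limma adjusted p = 1.87e-06). It had the largest FC of the 10 genes and the 217th largest of all 15280. Against the gland of the same mouse, the log2 difference was 4.78 for T11035, 4.76 for T11640 and 3.88 for T9232.

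*Vcan*, at chr13:89794915-89882117 (minus strand), encodes versican, a large chondroitin sulfate proteoglycan that binds hyaluronan. It was at 44.7, 122 and 56.5 CPM in glands M11035, M11640 and M9232, and at 1068, 1123 and 827 CPM in their tumors. Gland M11640 was more than 2-fold above the other glands, yet well below each tumor. The means of 74.5 ± 41.8 and 1006 ± 157 CPM corresponded to a 14.6-fold rise (95% confidence interval 8.65 to 24.8; log2 FC 3.87 ± 0.33 (SE), limma adjusted p = 4.72e-05).

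*Postn*, at chr3:54165031-54194961 (plus strand), encodes periostin, which is secreted mainly by fibroblasts and takes part in the cross-linking of collagen. Its values were 243, 500 and 599 CPM in glands M11035, M11640 and M9232, against 3771, 4539 and 5261 CPM in their tumors. Gland M11035 was the lowest gland and tumor T11035 the lowest tumor. The mean rose from 448 ± 184 to 4523 ± 745 CPM, 10.7-fold (95% confidence interval 6.57 to 17.5; log2 FC 3.42 ± 0.31 (SE), limma adjusted p = 6.19e-05). With this level, *Postn* was the gene with the 6th highest mean CPM of all genes in the tumors, having ranked 284th in the glands.

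The thrombospondins bind the matrix, integrins and CD47, and thrombospondin 1 is known as an inhibitor of angiogenesis and an activator of latent TGF-β. *Thbs2* (chr17:14802507-14831269, minus strand) was at 33.3, 124 and 72.2 CPM in glands M11035, M11640 and M9232, and at 521, 691 and 606 CPM in their tumors. *Thbs1* (chr2:117937612-117952869, plus strand) was at 19.5, 43.6 and 39.4 CPM in these glands, and at 264, 286 and 254 CPM in these tumors. Both were lowest in gland M11035 and highest in gland M11640 among the glands, and both were separated between the tissues. *Thbs2* rose 8.94-fold (95% confidence interval 4.76 to 16.8; limma adjusted p = 3.77e-04) and *Thbs1* rose 8.19-fold (95% confidence interval 5.28 to 12.7; limma adjusted p = 6.58e-05). *Thbs1* varied least among the tumors, with 268 ± 16.6 CPM.

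To ask whether the balance of these paralogs differed, the log2 ratio of *Thbs1* to *Thbs2* was taken within each library, which does not depend on library scaling. It was -0.76, -1.49 and -0.87 in glands M11035, M11640 and M9232, against -0.98, -1.27 and -1.25 in tumors T11035, T11640 and T9232. The tissues overlapped, with -1.04 ± 0.40 in the glands and -1.17 ± 0.16 in the tumors (SD, n = 3; exact permutation test, two-sided, p = 0.8, adjusted p over the 2 ratios tested = 0.8). With 3 libraries against 3, this test cannot give a p below 0.1.

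*Fn1*, at chr1:71632094-71699774 (minus strand), encodes fibronectin, the main adhesive protein of the provisional matrix and a ligand of the α5β1 integrin. It was at 177, 562 and 229 CPM in glands M11035, M11640 and M9232, and at 1489, 1880 and 1842 CPM in their tumors. The tissues were separate, although the glands spread over more than 3-fold. Fibronectin transcripts rose 6.08-fold, from 323 ± 209 to 1737 ± 216 CPM (95% confidence interval 3.39 to 10.9; log2 FC 2.60 ± 0.37 (SE), limma adjusted p = 7.24e-04). The difference was smallest in the mouse of T11640 (log2 1.74), whose gland had the most *Fn1*, and was 3.07 and 3.01 in the mice of T11035 and T9232.

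*Sparc*, at chr11:55208002-55233582 (minus strand), encodes SPARC (osteonectin), a collagen-binding protein involved in matrix assembly. It was at 566, 1341 and 464 CPM in glands M11035, M11640 and M9232, and at 3175, 4283 and 4514 CPM in their tumors. *Sparc* was the 1 gene of the 10 that was not lowest in gland M11035. It rose 5.58-fold, from 790 ± 479 to 3991 ± 716 CPM (95% confidence interval 3.17 to 9.83; log2 FC 2.48 ± 0.36 (SE), limma adjusted p = 7.96e-04). Without glands M11035 and M11640 its log2 FC was 3.09 (adjusted p = 0.00284). In the tumors it had the 7th highest mean CPM of all genes.

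*Lum* and *Dcn* did not share this rise. Lumican, encoded by *Lum* at chr10:97028135-97035337 (plus strand), is a keratan sulfate proteoglycan of collagen-rich tissue. It was at 53.1, 271 and 107 CPM in glands M11035, M11640 and M9232, and at 197, 237 and 403 CPM in their tumors. Gland M11640 was above tumors T11035 and T11640, so the tissues overlapped. The log2 FC of 1.19 ± 0.52 (SE) did not pass the test (2.29-fold, 95% confidence interval 1.0004 to 5.23; limma adjusted p = 0.1003). This result rested on gland M11640, without which *Lum* was called (log2 FC 1.81, adjusted p = 0.00805). The adjusted p was 0.0502 with the mouse as a block.

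*Dcn*, at chr10:96942245-96980777 (plus strand), encodes decorin, which binds collagen fibrils and TGF-β. It was at 248, 1258 and 656 CPM in glands M11035, M11640 and M9232, and at 625, 529 and 739 CPM in tumors T11035, T11640 and T9232. The tumors fell inside the range of the glands. The mean was 720 ± 508 CPM in the glands and 631 ± 105 CPM in the tumors (1.06-fold on the log scale, 95% confidence interval 0.491 to 2.29; limma adjusted p = 0.907). This interval leaves room for a 2-fold difference in either direction. Within the mice, the log2 difference was 1.33 in the mouse of T11035, -1.25 in that of T11640 and 0.17 in that of T9232, and the estimate was -0.54 without gland M11035 and 0.63 without gland M11640.

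*Dcn* and *Lum* are neighbours on chromosome 10, 47.4 kb apart, and their ratio separated the tissues, which neither gene did alone. The log2 ratio of *Dcn* to *Lum* was 2.21, 2.21 and 2.60 in glands M11035, M11640 and M9232, against 1.67, 1.16 and 0.87 in tumors T11035, T11640 and T9232. Each tumor was below each gland. *Dcn* was 5.07-fold above *Lum* in the glands (log2 2.34 ± 0.23) and 2.35-fold above it in the tumors (log2 1.23 ± 0.40), a difference of -1.11 (exact permutation test, two-sided, p = 0.1, the smallest the design allows, adjusted p over the 2 ratios tested = 0.2). Leaving out each library in turn gave between -1.33 and -0.93.

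*Spp1*, at chr5:104864137-104870069 (plus strand), encodes osteopontin, an acidic ligand of αv integrins and CD44 that is made by macrophages, bone cells and epithelia, including the mammary epithelium. It was at 476, 1831 and 3768 CPM in glands M11035, M11640 and M9232, and at 1102, 1872 and 804 CPM in their tumors. The glands spread over 7.91-fold and enclosed all the tumors. The mean was 2025 ± 1654 CPM in the glands and 1259 ± 551 CPM in the tumors, with a log2 FC of -0.33 ± 0.66 (SE) and a 95% confidence interval from 0.283- to 2.24-fold (limma adjusted p = 0.720). The mice went different ways, with log2 differences from the gland of 1.21 for T11035, 0.03 for T11640 and -2.23 for T9232. The estimate was -1.15 without gland M11035 (adjusted p = 0.0529), 0.34 without gland M9232 and -1.67 without glands M11035 and M11640. *Spp1* was abundant in both tissues, with the 22nd highest mean CPM of all genes in the glands and the 45th highest in the tumors. The 8 macrophage markers had a summed level of 1263, 2315 and 4372 CPM in these glands, against 1544, 2892 and 2855 CPM in tumors T11035, T11640 and T9232, with 1 upregulated and 1 downregulated. The glands thus had the same order for *Spp1* and for this sum, whereas the tumors did not. The epithelial marker sum (227, 283 and 497 CPM in these glands) and the contractile and pericyte marker sum (353, 540 and 583 CPM) had this gland order too. The other marker sums did not. The part of macrophages or of these other cells in the level of *Spp1* was not tested.

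**Figure D2:**
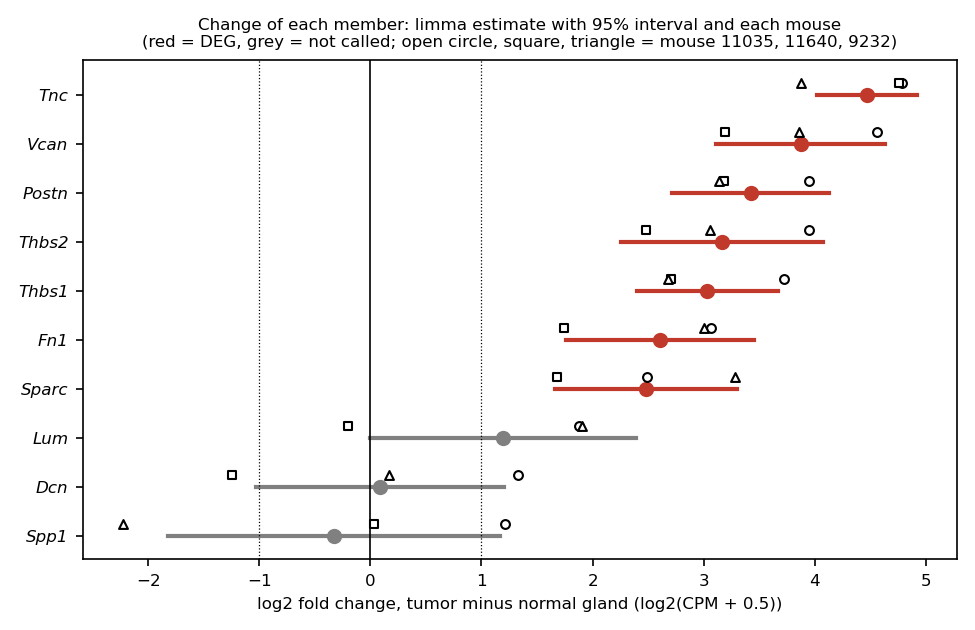
Log2 FC of tumor over normal gland for each gene, from the limma fit on log2(CPM + 0.5), with its 95% confidence interval (filled circle and bar; red, called as a DEG; grey, not called) and the difference within each mouse (open symbols). The intervals of the 7 called genes lie above 1, whereas those of *Dcn* and *Spp1* span 0 and the mice differ in sign for *Lum*, *Dcn* and *Spp1*.

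The variation among glands was larger than that among tumors for all 10 genes. The coefficient of variation was between 26.8% (*Tnc*) and 81.7% (*Spp1*) in the glands, and between 6.19% (*Thbs1*) and 43.8% (*Spp1*) in the tumors. Pooled over at least 14249 genes, the chi-square per degree of freedom was 28.6 to 52.3 between pairs of glands. Between pairs of tumors it was 13.0 to 19.0. Abundant genes weigh most in this measure, so it does not give the variation of a typical gene. Of the 10 genes, 9 were lowest in gland M11035, 7 were highest in gland M11640 and the other 3 (*Tnc*, *Postn* and *Spp1*) were highest in gland M9232. How many of all genes shared the larger variation or these orders was not counted. For 6 of the 10 genes, the order of the 3 glands was that of the fibroblast marker sum (M11035, M9232, M11640). For 3 it was that of the macrophage marker sum (M11035, M11640, M9232), which the epithelial sum and the contractile and pericyte sum shared. Among the tumors, the fibroblast and macrophage sums had the order T11035, T9232, T11640, which 2 of the 10 genes shared (*Fn1* and *Thbs2*). Tumor T11640 was highest for 6 genes and T9232 for 4.

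Compared as CPM per kb of exon, so that genes of different length can be set side by side, the levels were ordered differently in the tissues. In the glands, *Spp1* was first at 1229 ± 1004 CPM per kb, followed by *Dcn* (372 ± 262), *Sparc* (235 ± 142), *Lum* (69.4 ± 54.8), *Postn* (57.1 ± 23.4), *Fn1* (38.7 ± 25.0), *Thbs2* (12.9 ± 7.65), *Tnc* (7.13 ± 1.91), *Thbs1* (5.63 ± 2.12) and *Vcan* (5.15 ± 2.89). Neighbours in this order overlapped between libraries, except that *Sparc* was above *Lum* and *Fn1* above *Thbs2* in each comparison of glands. In the tumors, *Sparc* was first at 1185 ± 213 CPM per kb, followed by *Spp1* (764 ± 334), *Postn* (577 ± 95.1), *Dcn* (326 ± 54.2), *Fn1* (208 ± 25.8), *Tnc* (157 ± 17.8), *Lum* (134 ± 52.7), *Thbs2* (102 ± 14.3), *Vcan* (69.5 ± 10.9) and *Thbs1* (44.2 ± 2.73). *Sparc* and *Spp1*, *Spp1* and *Postn*, *Tnc* and *Lum*, and *Lum* and *Thbs2* overlapped there, and the other neighbours did not. *Lum* thus stood above *Tnc* in the glands, with 25.6 to 131 CPM per kb against 5.74 to 9.31, and not in the tumors, where it had 94.7 to 194 against 138 to 173.

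Together, the 10 genes made up 0.197%, 0.603% and 0.601% of the fragments of glands M11035, M11640 and M9232, and 1.41%, 1.64% and 1.56% of those of tumors T11035, T11640 and T9232. The summed CPM was 4689 ± 2411 in the glands and 15477 ± 1805 in the tumors. Within this sum, *Spp1* and *Dcn* held 38.0%, 50.6% and 73.0% in these glands and 12.9%, 14.3% and 9.47% in these tumors. *Postn* went from 10.3% ± 2.31 to 29.2% ± 2.76 of the sum, and *Tnc* from 1.399% ± 0.771 to 7.68% ± 1.29. *Fn1* was nearly constant among the tumors, at 11.2% ± 0.103, after 7.43% ± 3.17 in the glands. *Postn* and *Sparc* were the largest parts in each tumor.

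**Figure D3:**
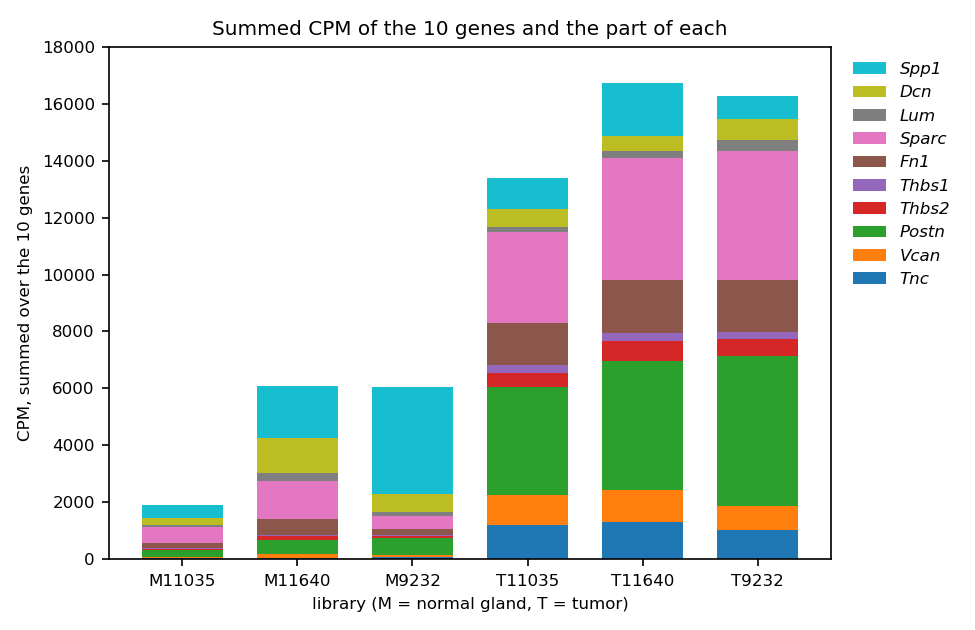
CPM summed over the 10 genes in each library, with each gene's part as a colored segment (M, normal gland; T, tumor). The sum is 1905 to 6101 CPM in the glands and 13409 to 16739 CPM in the tumors, and the segments of *Spp1* and *Dcn* take the largest share in gland M9232.

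Because collagen transcripts also differed between the tissues, each gene was set against the mean log2 level of *Col1a1*, *Col1a2* and *Col3a1* in the same library. This mean was 6.88, 8.61 and 7.27 in glands M11035, M11640 and M9232, against 11.2, 11.3 and 11.2 in their tumors. *Col1a1*, *Col1a2* and *Col3a1* rose by log2 FCs of 4.63, 3.75 and 2.60, and *Col3a1* by 3.24 without gland M11640. Relative to this mean, *Tnc* was higher in the tumors by 0.81 and *Vcan* by 0.21 on the log2 scale, and *Postn* differed by -0.24, but the tissues overlapped for each. The other 7 genes were all lower relative to collagen in every tumor than in every gland. Because the collagen mean rose, a gene with an unchanged CPM would be lower on this scale too. The share of all genes that were lower on it was not counted. The separation of *Thbs1* was narrow, with -3.15 in gland M11640 and -3.16 in tumor T11640. The differences were -0.50 for *Thbs2*, -0.63 for *Thbs1*, -1.06 for *Fn1* and -1.18 for *Sparc*, all of which rose in CPM. They were -2.47 for *Lum*, -3.58 for *Dcn* and -3.99 for *Spp1*. *Fn1* kept a narrow range in each tissue, with 0.59, 0.52 and 0.57 in the glands and -0.68, -0.45 and -0.35 in the tumors. These values are descriptions of 3 against 3 libraries and show unequal change, since the collagen mean itself moved.

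**Figure D4:**
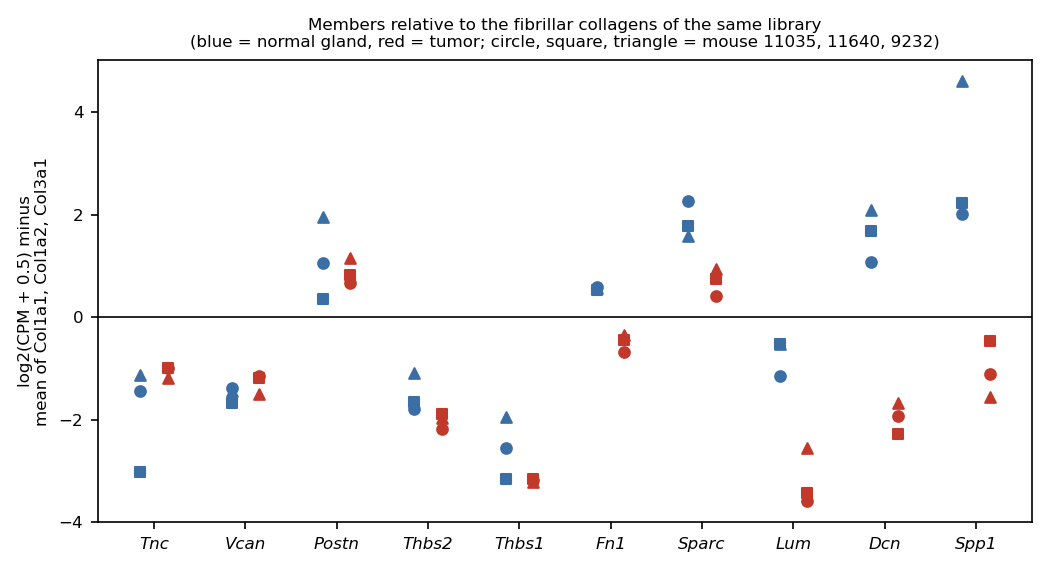
Log2(CPM + 0.5) of each gene minus the mean of *Col1a1*, *Col1a2* and *Col3a1* in the same library, for normal glands (blue) and tumors (red), with the mouse given by the symbol. The tissues overlap for *Tnc*, *Vcan* and *Postn*, and for *Dcn* and *Spp1* the glands lie above 1 and the tumors below 0.

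The paralogs, ligands, enzymes and receptors of these genes were read in 8 lists with 82 genes, of which 74 were in the table. Of these, 31 (41.9%) were upregulated and 10 (13.5%) were downregulated, against 14.5% and 13.7% of all genes, and the median log2 FC was 0.58. These lists were compiled by hand with earlier results of these data known. They are described by their counts only, and enrichment was not tested.

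Among 8 genes of the thrombospondin and CCN family, 4 were upregulated and 0 were downregulated (median log2 FC 1.37). *Wisp1* (CCN4), a secreted protein of the Wnt pathway, rose from 2.15 ± 0.597 to 141 ± 3.08 CPM, with a log2 FC of 5.77 (limma adjusted p = 1.04e-06), larger than that of any of the 10 genes. *Cyr61* (CCN1), a matricellular ligand of integrins, was at 11.0, 8.59 and 21.1 CPM in glands M11035, M11640 and M9232 and at 71.6, 56.1 and 84.1 CPM in their tumors (log2 FC 2.42, adjusted p = 4.60e-04; 1.70 without glands M11035 and M11640). *Nov* (CCN3) overlapped between the tissues, with 0.407, 10.1 and 3.69 CPM in the glands and 9.86, 66.8 and 46.6 CPM in the tumors. It was called (log2 FC 3.23, limma adjusted p = 0.0225), and the call was lost without tumor T11640 (log2 FC 2.69, adjusted p = 0.0954), without tumor T9232 (2.95, adjusted p = 0.0874) and without glands M11035 and M11640 (2.93, adjusted p = 0.102). Leaving out other libraries kept the call but moved the log2 FC to 2.27 without gland M11035, to 4.04 without gland M11640 and to 4.04 without tumor T11035.

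Of 5 tenascins, fasciclin and SIBLING proteins (the relatives of *Tnc*, *Postn* and *Spp1*), 3 were upregulated and 1 was downregulated (median log2 FC 1.68). The tenascins went opposite ways. *Tnn* (tenascin W), which is found in bone and in tumor stroma, rose from 1.14 ± 0.158 to 58.0 ± 24.0 CPM (log2 FC 5.07, limma adjusted p = 1.06e-05). *Tnxb* (tenascin X), a protein of resting connective tissue, fell from 27.1 ± 19.0 to 2.42 ± 1.93 CPM (log2 FC -3.20, adjusted p = 0.00223). *Tgfbi*, a TGF-β-induced fasciclin protein like periostin, rose from 70.8 ± 11.4 to 227 ± 30.3 CPM. *Ibsp* (bone sialoprotein), a relative of *Spp1* 123.6 kb away on chromosome 5, was at 0.610, 0 and 0.137 CPM in the glands, at or under the detection limit, and at 18.1, 14.4 and 6.89 CPM in the tumors. It was therefore at least 25.97-fold higher in the tumors, with the limit taken as the mean over the glands. The 3 bone and cartilage markers in the table, of which *Ibsp* was the most abundant in the tumors, summed to 0.274 to 3.30 CPM in the glands and 8.24 to 20.1 CPM in the tumors. Another of them, the bone transcription factor *Sp7*, was at 0 CPM in each gland and at 1.49, 1.70 and 0.2997 CPM in tumors T11035, T11640 and T9232. Its call (limma adjusted p = 0.0278) was lost in 6 of 15 alternatives, namely without any 1 of the glands, without tumor T11035, without tumor T11640 and without glands M11035 and M11640 (adjusted p up to 0.1502). *Dmp1*, the remaining marker, was not called (log2 FC 0.06). The part of bone-forming cells in these values was not tested.

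In the SPARC family, 2 of 7 genes were upregulated and 1 was downregulated (median log2 FC -0.38), so that the rise of *Sparc* was not shared across the family. *Fstl1*, a secreted follistatin-like glycoprotein, rose from 207 ± 141 to 1417 ± 183 CPM (log2 FC 3.00, limma adjusted p = 6.74e-04). *Smoc2* rose from 7.80 ± 2.36 to 26.5 ± 4.86 CPM, whereas its paralog *Smoc1* fell from 32.2 ± 8.79 to 1.85 ± 0.787 CPM (log2 FC -3.81, adjusted p = 3.11e-05).

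Of 11 further small leucine-rich proteoglycans, 3 were upregulated and 2 were downregulated (median log2 FC 0.05). *Aspn* (asporin) rose from 24.2 ± 12.5 to 235 ± 45.8 CPM (log2 FC 3.34, limma adjusted p = 8.23e-05). *Bgn* (biglycan), the closest relative of decorin, was at 97.0, 125 and 114 CPM in glands M11035, M11640 and M9232 and at 754, 1038 and 1212 CPM in their tumors (log2 FC 3.13, adjusted p = 9.55e-06). Biglycan transcripts were thus separate between the tissues where those of decorin overlapped. *Fmod* (fibromodulin), which is closely related to lumican, rose from 9.93 ± 0.182 to 45.1 ± 16.0 CPM (log2 FC 2.07). *Prelp* fell from 150 ± 58.1 to 41.4 ± 23.2 CPM (log2 FC -1.95, adjusted p = 0.00729), a call that was lost without glands M11035 and M11640 (-1.58, adjusted p = 0.151). *Epyc* (epiphycan), near *Dcn* and *Lum* on chromosome 10, was close to the detection limit at 1.72 ± 1.03 CPM in the glands and 0.306 ± 0.256 CPM in the tumors. Its call (log2 FC -1.38, adjusted p = 0.0477) was lost in 8 of the 16 alternatives, among them the fit with the mouse as a block (adjusted p = 0.0555).

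Versican binds hyaluronan and is cut by Adamts proteases. Of 10 hyaluronan and versican partners in the table, 5 were upregulated and 1 was downregulated (median log2 FC 1.02). *Has2*, the main hyaluronan synthase of stromal cells, rose from 9.13 ± 2.84 to 54.9 ± 17.9 CPM (log2 FC 2.51, limma adjusted p = 4.06e-04). *Has1* and the hyaluronidase *Hyal2* rose by log2 FCs of 1.44 and 1.18, the latter not called without glands M11035 and M11640 (1.31, adjusted p = 0.0576). *Ncan* (neurocan) was at 22.6, 50.4 and 6.70 CPM in the glands and at or under the detection limit in the tumors. Its gland mean was 56.9-fold above that limit, taken as the mean over the tumors. Its fitted log2 FC of -4.97 (adjusted p = 3.92e-04) was -4.31 without gland M11640, -5.72 without gland M9232 and -3.47 without glands M11035 and M11640. Of 6 Adamts proteases that cut versican, 2 were upregulated and 0 were downregulated (median log2 FC 0.03). *Adamts4* rose from 2.74 ± 0.630 to 72.6 ± 18.2 CPM (log2 FC 4.48, adjusted p = 5.98e-06) and *Adamts1* from 50.3 ± 19.6 to 117 ± 16.4 CPM (log2 FC 1.27, adjusted p = 0.00496).

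Of 11 plasma and elastic matrix proteins, 4 were upregulated and 2 were downregulated (median log2 FC -0.26). The fibulins *Fbln2* and *Fbln1* rose by log2 FCs of 3.11 and 2.73, and *Fbn1* (fibrillin 1), the backbone of microfibrils, rose from 225 ± 190 to 959 ± 164 CPM (log2 FC 2.42, limma adjusted p = 0.00528; 3.08 without gland M11640). *Vtn* (vitronectin), a plasma ligand of αv integrins, was at 5.34 ± 1.403 CPM in the glands and at or under the detection limit in the tumors. Its gland mean was 11.4-fold above that limit, taken as the mean over the tumors, and its fitted log2 FC was -3.06. *Vwf*, a protein of endothelial cells, had a log2 FC of -1.07 (adjusted p = 0.0231) and lost its call in 6 of the 16 alternatives, among them without gland M11640 (-0.99, adjusted p = 0.0666), without tumor T11035 (-0.88, adjusted p = 0.0815) and without tumor T11640 (-0.88, adjusted p = 0.0962).

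**Figure D5:**
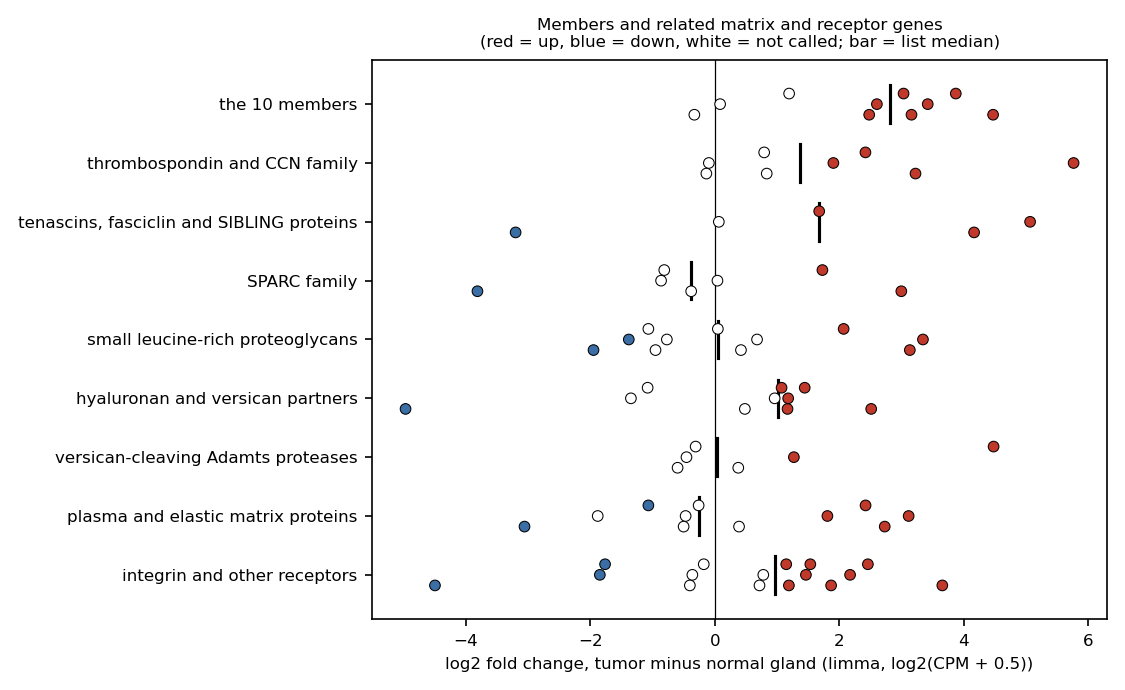
Log2 FC of tumor over normal gland (limma, log2(CPM + 0.5)) for the 10 genes and for each list of related genes. Each point is a gene (red, upregulated; blue, downregulated; white, not called), and the vertical bar is the median of the list, which is 2.82 for the 10 genes and between -0.38 and 1.68 for the others.

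Among 16 receptors for these proteins, 8 were upregulated, 3 were downregulated and 5 were not called (median log2 FC 0.96). *Cd44*, a receptor for hyaluronan and osteopontin, was at 161, 165 and 218 CPM in glands M11035, M11640 and M9232 and at 940, 1047 and 984 CPM in their tumors (log2 FC 2.46, limma adjusted p = 9.75e-06). *Sdc1* (syndecan 1), a heparan sulfate proteoglycan of epithelial and stromal cells, rose from 15.6 ± 5.56 to 196 ± 27.8 CPM (log2 FC 3.66, adjusted p = 1.48e-05). Both were separate between the tissues.

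The integrin chains did not move as one. The fibronectin receptor chains *Itga5* and *Itgb1* rose by log2 FCs of 2.17 (adjusted p = 1.24e-04) and 1.19 (adjusted p = 9.27e-04). The αv chain *Itgav* rose by 1.54, and its partner chains *Itgb6* and *Itgb5* rose by 1.87 and 1.46. Of the other αv partners, *Itgb3* had a log2 FC of -0.40 (limma adjusted p = 0.0699) and *Itgb8* of -0.18 (adjusted p = 0.665). *Itga9*, a receptor chain for tenascin C and osteopontin, was at 26.6 ± 3.69 CPM in the glands and 45.8 ± 4.89 CPM in the tumors, with a log2 FC of 0.78 that lay under the 2-fold threshold (adjusted p = 0.00789). *Itga4* and *Itga8* fell by 1.85 and 1.76 on the log2 scale (adjusted p = 1.15e-04 and 0.0102). Exons of *Itga4* overlap those of *Cerkl* and exons of *Itga8* overlap those of E030013I19Rik, so their values are less certain.

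The thrombospondin receptors also differed. *Cd36*, a fatty acid transporter of adipocytes and endothelium that binds thrombospondins, fell from 2228 ± 839 to 97.6 ± 31.4 CPM (log2 FC -4.50, limma adjusted p = 1.81e-05), beside the fall of the adipocyte marker sum given above, whose part in it was not tested. *Cd47*, the other thrombospondin 1 receptor, had a log2 FC of -0.36 (adjusted p = 0.132). *Lrp1*, which clears thrombospondins from the surface, rose by 1.15 (adjusted p = 0.00539), but fell short of the 2-fold threshold without gland M11035 (0.94) and without tumor T9232 (0.99). *Sdc4*, a fibronectin co-receptor, had a log2 FC of 0.72 (adjusted p = 0.0585).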

How the data were processed

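RNA-Seq was performed by the authors on total RNA from 3 mammary tumors and the 3 matched normal, adjacent glands of BK5.ATF3 mice. According to the methods and the submitters' processing notes, reads were processed with CASAVA 1.8.2 and aligned to mm9 with TopHat2 2.0.3, fragments per RefSeq gene were counted with HTSeq 0.5.3p9, genes with fewer than 10 fragments were removed and edgeR 3.6.1 was used. The authors deposited a normalized signal, CPM on edgeR's effective library size, for 15280 genes, none with fewer than 11 fragments in all 6 libraries together. Within 0.01 steps, 100% of the values corresponded to whole fragments, which were recovered. TMM factors from these matched the deposited scaling with a ratio of 1. Because fragments are counted without strand being stated, overlapping genes could not be told apart. None of the 10 genes had an exon overlap with another gene of the table, and 0 of the 10 had a transcript of another gene at least 95% identical over 500 bp.

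Each library was assigned to tissue and mouse by its label. Log2(CPM + 0.5) was tested with limma 3.58.1 (R 4.3.3, mean-variance trend, two-sided, no block), with Benjamini-Hochberg adjustment over all 15280 genes. Means ± SD are of CPM over 3 mice. Ratios of 2 genes were compared with exact permutation tests in scipy 1.17.1. The unit was recorded as a signal because the columns sum to different totals, and the planned test for CPM was kept. Tumor and gland with the same number came from 1 animal and are paired. Over 14712 genes, their deviations from the tissue means had correlations of 0.107 (T11035), 0.151 (T11640) and 0.0168 (T9232). Between tumors and glands of different mice, the correlations were between -0.168 and 0.0405. Tumor T9232 was no closer to its own gland than to gland M11035 (0.0251). The methods do not state a mouse term, so the block was an alternative. No libraries of a tissue were copies (lowest chi-square per degree of freedom 13.0). The scripts were tested on simulated data. Other alternatives were edgeR 4.0.16 and DESeq2 1.42.0 on the recovered fragments, pseudocounts of 0.1 and 1, a filter at a mean of 1 CPM, scaling to the column total, limma without trend and leaving out each library. The fit without glands M11035 and M11640 was added after seeing the data.

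The 10 genes and the gene lists were chosen with earlier results of these data known. Named genes are the 10, up to 3 upregulated and 3 downregulated DEGs with the largest change in each related list, every receptor, the first 3 markers of a cell type, the 3 fibrillar collagens and *Atf3*. *Lep*, *Sp7* and *Dmp1* were named after their values were seen. Positions and exon lengths are from GENCODE vM1 (mm9).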

Additional observations from a re-analysis of the deposited data

How the results depend on the processing

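The number of DEGs over all genes was 4309, and lay between 3206 (without glands M11035 and M11640, which left 1 gland assumed to vary like the tumors) and 4462 (edgeR) over the 16 alternatives. Of the 10 genes, 7 were called under each alternative except without gland M11640, where 8 were. Of the 160 log2 FCs this gives for the 10 genes, 159 stayed on their side of the threshold, with 1 gained (*Lum*). The highest adjusted p of the 7 called genes over the alternatives was between 7.11e-04 (*Tnc*) and 0.00680 (*Sparc*). With the mouse as a block, which pairs the tissues of an animal, 4298 DEGs were called by limma and 4462 by edgeR, with 7 of the 10 genes in both, and apart from *Epyc* no call printed above for the related genes was lost under the block. The difference in the ratio of *Thbs1* to *Thbs2* (-0.13) was -0.13 as paired differences, and that of *Dcn* to *Lum* was -1.11, and neither sign-flip test of 3 pairs can give a p below 0.25. Leaving out each library in turn, the *Thbs1* to *Thbs2* difference lay between -0.35 and 0.0134 and the *Dcn* to *Lum* difference between -1.33 and -0.93, and the value that turned positive (0.0134) was the one without gland M11035. Values near the detection limit of 3 fragments, such as those of *Epyc*, *Ibsp*, *Ncan* and *Vtn*, are limited by depth, and their fitted log2 FC depends on the pseudocount. The small number of mice limits each interval.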
